A study of Sus scrofa with 8 samples.

Results

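The array targets named for miR-26 and miR-22 were examined in porcine corpus luteum, the ovarian gland that makes progesterone after ovulation. They were taken by name: every non-control entry whose miRNA number was exactly 26 or 22, whatever its species prefix, letter or arm, which gave 6 of the 686 miRNA targets on the array. These were ssc-miR-26a and ssc-miR-22-3p, the pig guide strands, bta-miR-26b, listed under its cattle name, ssc-miR-22-5p, the strand opposite miR-22-3p, and hsa-miR-26a-1-3p and hsa-miR-26b-3p, human-named strands opposite the miR-26 guides. The group itself was chosen on these same arrays, where its members were noticed as bright and little changed. The signal levels and the spread between arrays given below are therefore a description, and no test is made of them. Group differences were tested, but a failure to pass is not separate evidence of stability in targets noticed for small change.

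Luteal RNA came from 4 pregnant gilts on day 14 of pregnancy, inseminated after their second estrus was detected, and from 4 cyclic gilts on day 14 of the estrous cycle, which were not inseminated. All gilts were crossbred, 6 to 8 months old and from 1 commercial herd, and the glands were taken after death. Every RNA was labelled with Cy3 and hybridised alone, 1 sample to an array. Whole glands hold steroid-producing, endothelial, stromal and immune cells, so in such bulk tissue fewer cells of a type and less RNA per cell cannot be told apart.

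MicroRNAs are short RNAs that guide Argonaute proteins to messenger RNAs and lower their output, mainly through the seed near the 5′ end. miR-26a and miR-26b share a seed and nearly all of the remaining sequence. In mammals they are made from introns of the CTDSP phosphatase genes, restrain cell cycle entry and repress the histone methyltransferase EZH2. In the RefSeq annotation of the pig genome assembly Sscrofa11.1, MIR26A was the single entry found for the group, and it lay inside the phosphatase gene CTDSP2. miR-22 is made from a non-coding host transcript, and in human breast cancer cells it represses the estrogen receptor ESR1. In pig granulosa cells, the follicular cells from which part of the corpus luteum forms, miR-26b is known to promote apoptosis.

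Across the 8 arrays, 181 to 223 targets were detected, 22.8% to 28.8% of the spots were well above background, and 0 spots were saturated. Pregnant replicates 1 and 2 shared slide 1, cyclic replicates 1 and 2 shared slide 2, and replicates 3 and 4 of both groups lay on slide 3. Slide 1 was scanned on another day than the other slides. Signals are given as the mean spot intensity of a target's brightest probe, or as the log2 scaled signal, which is log2 of that intensity after division by the array's 75th percentile over the 166 targets detected on every array. The percentile was 188.8 to 315.6. Tests were made on 211 targets, those detected on at least 4 arrays.

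Of the 6 entries, 4 were detected on all 8 arrays and were tested. By signal, ssc-miR-22-3p ranked 7 to 9 of the 686 targets on an array, ssc-miR-26a 10 to 13, bta-miR-26b 25 to 29 and ssc-miR-22-5p 120 to 130. The word abundant therefore fits the signals of the guide strands but not that of ssc-miR-22-5p, and since probes bind and label with unequal efficiency, a rank of signal is not a rank of copies.

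The strands opposite the miR-26 guides gave no usable signal. For hsa-miR-26a-1-3p, 0 of 159 spots read over its 4 probes and 8 arrays were well above background, and for hsa-miR-26b-3p 0 of 158. The highest probe mean on any array was 2.83 and 3.44 intensity units for these entries in that order, against 8.55 for the dimmest probe that counted as detected. Both were not well above background in either group, so no fold is given. They carry human names, and whether their probes match the pig strands was not tested.

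ssc-miR-26a had intensities of 1256, 995, 1276 and 1034 in pregnant replicates 1 to 4, against 1017, 1325, 863 and 1407 in cyclic replicates 1 to 4. After scaling, its log2 signal was 2.19, 2.07, 2.08 and 2.45 in pregnant glands and 2.15, 2.16, 2.16 and 2.16 in cyclic glands. The cyclic arrays fell within 0.0055 of each other on the log2 scale and lay inside the range of the pregnant arrays, where replicate 4 was high. The group means were 2.20 ± 0.18 in pregnant and 2.16 ± 0.0022 in cyclic glands (SD, n = 4 each). Pregnant minus cyclic came to 0.045 ± 0.11 (log2, SE), a ratio of 1.03 with a 95% confidence interval of 0.867 to 1.23, and did not pass (limma, adjusted p = 0.852). Without pregnant replicate 4 the difference was −0.039.

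bta-miR-26b, the family member made in mammals from a CTDSP1 intron, had intensities of 516, 363, 522 and 354 in pregnant replicates 1 to 4, against 410, 552, 339 and 678 in cyclic replicates 1 to 4. Its log2 scaled signal was 0.91, 0.62, 0.79 and 0.91 in pregnant and 0.84, 0.89, 0.81 and 1.10 in cyclic glands. The groups overlapped, with pregnant replicate 2 the lowest array and cyclic replicate 4 the highest. The means were 0.81 ± 0.14 in pregnant and 0.91 ± 0.13 in cyclic glands (SD, n = 4 each). The difference was −0.10 ± 0.12, a ratio of 0.930 (95% interval 0.776 to 1.11), and did not pass (limma, adjusted p = 0.638). Without pregnant replicate 2 it was −0.043, and without cyclic replicate 4 it was −0.041.

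ssc-miR-22-3p, the strand that carries the known repressive activity of miR-22, had intensities of 1484, 1397, 1578 and 1266 in pregnant replicates 1 to 4, against 1254, 1684, 996 and 1674 in cyclic replicates 1 to 4. Its log2 scaled signal was 2.43, 2.56, 2.39 and 2.75 in pregnant glands and 2.45, 2.50, 2.36 and 2.41 in cyclic glands. Pregnant replicate 4 was again the highest array, as for ssc-miR-26a, and the other pregnant arrays lay on both sides of cyclic ones. The means were 2.53 ± 0.16 in pregnant and 2.43 ± 0.059 in cyclic glands (SD, n = 4 each), a difference of 0.10 ± 0.11 and a ratio of 1.07 (95% interval 0.903 to 1.27), which did not pass (limma, adjusted p = 0.638). Without pregnant replicate 4 the difference was 0.030.

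ssc-miR-22-5p, the opposite strand of the same hairpin, was far dimmer. Its intensity was 42.6, 35.6, 42.1 and 30.7 in pregnant replicates 1 to 4, against 31.9, 51.3, 25.4 and 48.3 in cyclic replicates 1 to 4. All 155 of its spots read over 2 probes and 8 arrays were nonetheless well above background. On the log2 scale the arrays read −2.69, −2.73, −2.84 and −2.62 in pregnant glands and −2.84, −2.53, −2.93 and −2.71 in cyclic glands, the pregnant values lying inside the cyclic range. The means were −2.72 ± 0.091 in pregnant and −2.75 ± 0.17 in cyclic glands (SD, n = 4 each), and the difference of 0.034 ± 0.15 did not pass (ratio 1.02, 95% interval 0.816 to 1.29, limma, adjusted p = 0.926). Its sign turned without cyclic replicate 3 (−0.025), the cyclic array with the lowest value.

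**Figure D1:**
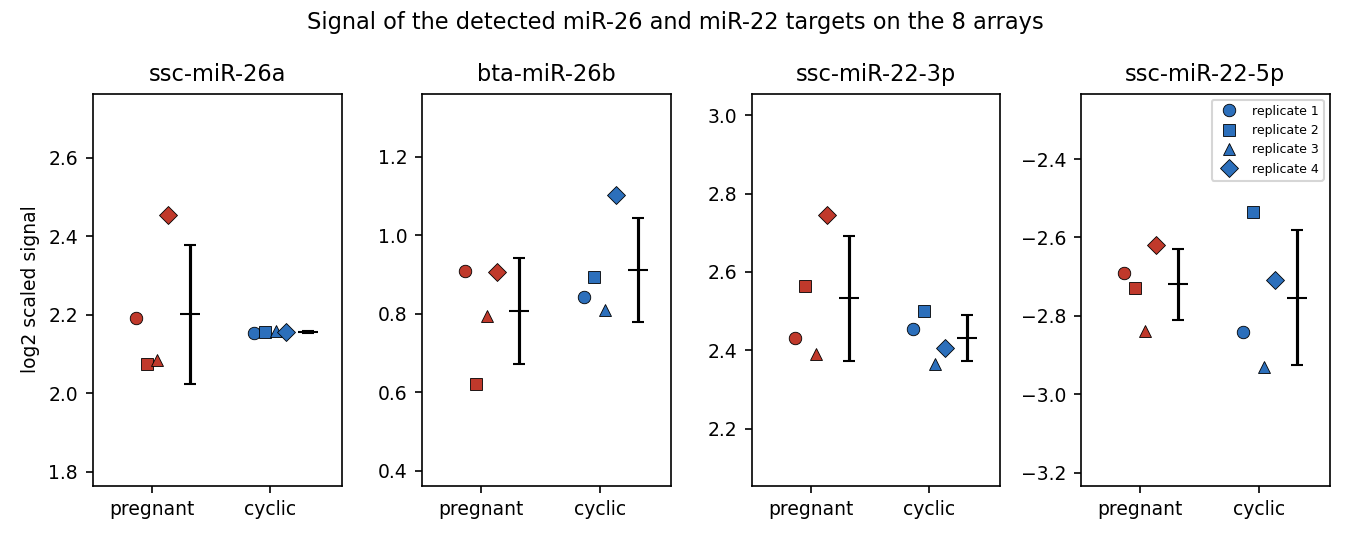
Log2 scaled signal (vertical axis, the same span of 1 log2 unit in each panel) of the 4 detected targets on each array, with 4 pregnant arrays in red on the left and 4 cyclic arrays in blue on the right; marker shapes give the replicate number and black bars the mean ± SD. The groups overlap for all 4 targets, and the cyclic points of ssc-miR-26a coincide near 2.16.

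None of the 4 tested targets therefore passed, and for none did the groups lie apart. Across all 211 tested targets, 11.4% passed the limma test at an adjusted p of 0.05 (11 or 5.21% higher and 13 or 6.16% lower in pregnant glands), 34.6% had an unadjusted p under 0.05 and 17.1% had groups that did not overlap. The 4 targets had unadjusted p from 0.391 to 0.821, and 0 of 4 passed with limma under any of 29 other settings. The count over all targets was itself unsteady: 24 passed as reported, 81 without cyclic replicate 1, 7 to 12 without any other single array and 2 with scan day as a block. The split of all calls depended on the scaling: 55 were higher and 7 lower with the 75th percentile over all probes, 16 and 12 with quantile normalization, 9 and 18 with centring on the median of the targets detected everywhere, and 3 and 6 without scaling. The percentile over all probes was 5.01 to 10.6 intensity units, lowest on pregnant replicate 4, and so near the 8.55 of the dimmest detected probe. With the percentile over all probes the median difference of all tested targets was 0.31 on the log2 scale, against 0.0068 as reported. There ssc-miR-22-3p stood at 0.40 (adjusted p = 0.0661), ssc-miR-26a at 0.34 (adjusted p = 0.0999), ssc-miR-22-5p at 0.33 and bta-miR-26b at 0.19. Relative to that median they stood at 0.094, 0.038, 0.028 and −0.11 in the same order. Another divisor per array shifts all targets alike, so these relative values equal those of the reported scaling by construction and are no check of it.

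On slide 3, the 1 slide that held both groups, the differences were 0.11 for ssc-miR-26a, −0.11 for bta-miR-26b, 0.18 for ssc-miR-22-3p and 0.091 for ssc-miR-22-5p, with 2 arrays per group. These are also the values with slide as a fixed block, since slides 1 and 2 each held a single group. On the second scan day, which covered slides 2 and 3 and hence both groups, they were 0.11, −0.062, 0.14 and 0.025 in the same order. The direction of each target was the same within the slide and within the scan day as over all arrays, and no value passed. Both subsets held the same pregnant replicates 3 and 4 and are part of the reported fit, so like signs are not separate evidence. On slide 3 pregnant replicate 3 read 2.08 for ssc-miR-26a, under both cyclic arrays at 2.16, and pregnant replicate 4 read 2.45. For ssc-miR-22-3p they read 2.39 and 2.75, against 2.36 and 2.41 on the cyclic arrays.

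**Figure D2:**
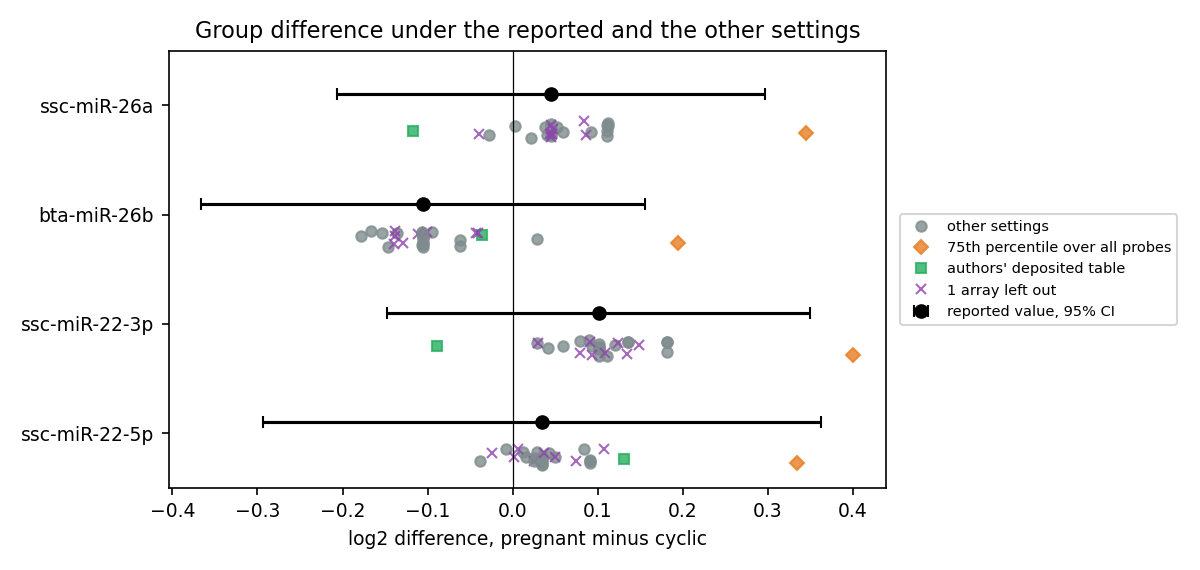
Log2 difference between pregnant and cyclic glands (horizontal axis, pregnant minus cyclic) for the 4 detected targets; black points with bars are the reported values with 95% confidence intervals from limma, and the small points under them are the values from 29 other settings. All 4 intervals span 0, and the scaling over all probes (orange) lies farthest to the right for each target, between 0.19 and 0.40.

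Each detected target was read by 2 probes, and in every case both had a difference of the same sign. ssc-miR-26a differed by 0.045 with the brighter probe and 0.060 with the dimmer one, ssc-miR-22-3p by 0.10 and 0.12, ssc-miR-22-5p by 0.034 and 0.050, and bta-miR-26b by −0.10 and −0.17. The probes of ssc-miR-26a kept nearly the same intensity ratio on all arrays (2.56 to 2.67), as did those of ssc-miR-22-3p (2.08 to 2.15), while the ratio ran from 1.82 to 2.07 for bta-miR-26b and from 1.52 to 1.80 for ssc-miR-22-5p. Probes of 1 target share its sequence and are not replicates of the condition. Cross-hybridisation between the closely related miR-26a and miR-26b was not tested.

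Differences taken between targets on the same array do not depend on the scaling of that array, and they were used to ask whether the targets changed unequally. Their absolute size reflects the probes and is not read. The 95% intervals of their group differences are equal-variance t intervals and do not come from the permutation test that gave p. miR-26b minus miR-26a was −1.28, −1.46, −1.29 and −1.55 on pregnant arrays 1 to 4, against −1.31, −1.26, −1.35 and −1.05 on cyclic arrays 1 to 4. The 2 lowest values were those of pregnant replicates 2 and 4 and the highest was that of cyclic replicate 4, with overlap between the groups. The mean was −1.39 ± 0.13 in pregnant and −1.24 ± 0.13 in cyclic glands (SD, n = 4 each), which differ by −0.15 (95% interval −0.38 to 0.076, exact permutation p = 0.229, 2-sided). For miR-22-3p minus miR-26b the means were 1.73 ± 0.20 in pregnant and 1.52 ± 0.15 in cyclic glands (SD, n = 4 each), a difference of 0.21 (95% interval −0.096 to 0.51, exact permutation p = 0.257). Without cyclic replicate 4 these differences were −0.086 and 0.13, and without pregnant replicate 2 they were −0.13 and 0.13.

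For miR-22-3p minus miR-26a the difference was 0.056 (95% interval −0.096 to 0.21, exact permutation p = 0.514), the narrowest interval among the 4 differences computed. Without pregnant replicate 2 it was 0.0038 and without pregnant replicate 1 it was 0.087. For the strands of miR-22, 5p minus 3p, a comparison added after both strands were seen to be detected, it was −0.067 (95% interval −0.27 to 0.14, exact permutation p = 0.400), with means of −5.25 ± 0.10 in pregnant and −5.19 ± 0.13 in cyclic glands (SD, n = 4 each). It ran from −0.11 without pregnant replicate 1 to −0.017 without cyclic replicate 2. After Benjamini-Hochberg adjustment over the 4 differences each had an adjusted exact p of 0.514. The smallest p that 4 against 4 arrays allow is 0.0286.

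**Figure D3:**
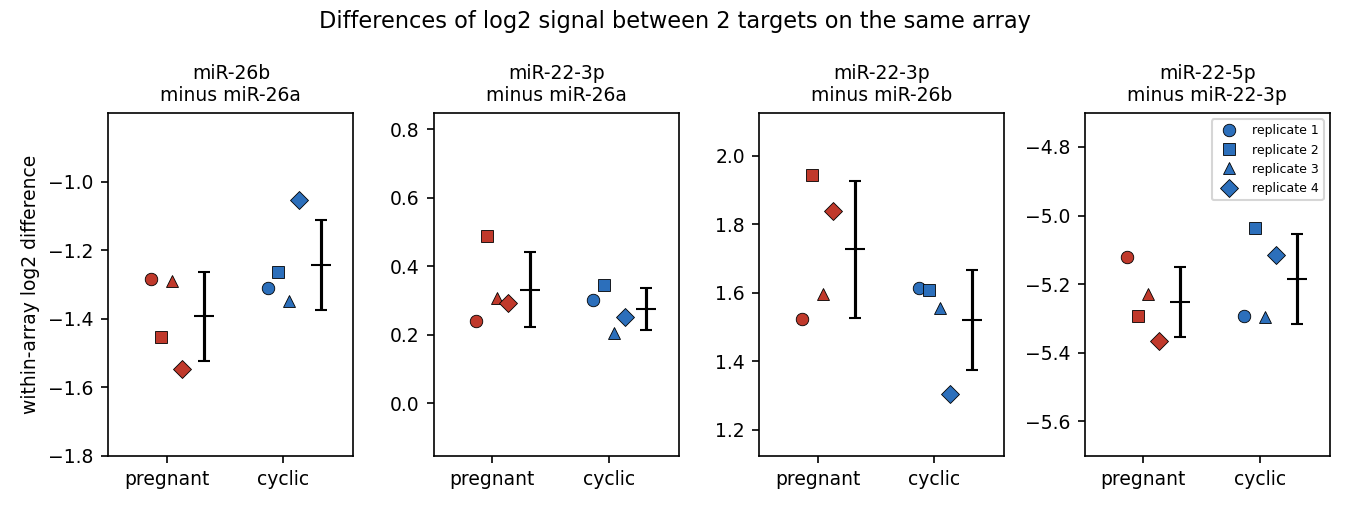
Within-array difference of log2 signal between 2 targets (vertical axis, the same span of 1 log2 unit in each panel), with 4 pregnant arrays in red on the left and 4 cyclic arrays in blue on the right; marker shapes give the replicate number and black bars the mean ± SD. The groups overlap in all 4 panels, and cyclic replicate 4 is the highest array for miR-26b minus miR-26a and the lowest for miR-22-3p minus miR-26b.

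The 4 targets varied little between arrays of a group. Their residual SD was 0.12 for ssc-miR-22-3p, 0.12 for ssc-miR-26a, 0.13 for bta-miR-26b and 0.14 for ssc-miR-22-5p on the log2 scale, where the median of the 211 tested targets was 0.23. Counted from the smallest, these ranked 8, 11, 17 and 19 of 211. Since the members were noticed as little changed on these arrays, the ranks are a description. How far the scaling lowered the spread was not tested. From the lowest to the highest of the 8 arrays ssc-miR-26a and ssc-miR-22-3p spanned 1.30-fold each, ssc-miR-22-5p 1.32-fold and bta-miR-26b 1.40-fold. Between spots of the reported probe the coefficient of variation was 1.96% to 3.69% for ssc-miR-26a, 2.67% to 5.15% for bta-miR-26b, 4.36% to 5.92% for ssc-miR-22-3p and 4.67% to 12.8% for the dimmer ssc-miR-22-5p. Without scaling the SD of ssc-miR-26a was 0.19 in pregnant and 0.33 in cyclic glands, and that of ssc-miR-22-3p was 0.14 in pregnant and 0.37 in cyclic glands.

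**Figure D4:**
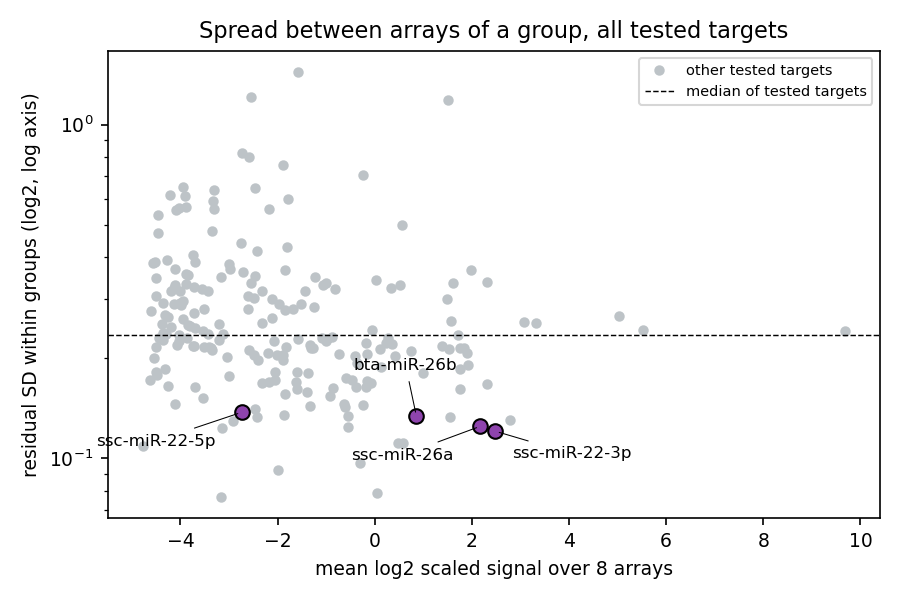
Residual SD between arrays of a group (vertical axis, log2 units on a log axis) against the mean log2 scaled signal over 8 arrays (horizontal axis) for the 211 tested targets in grey, with the 4 detected miR-26 and miR-22 targets in purple; the dashed line is the median of 0.23. All 4 lie under the line, between 0.12 and 0.14.

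Likeness between targets was measured as the root mean square distance of their log2 profiles over the 8 arrays, each centred on its own mean, a measure that favours targets of low spread. The profile nearest to ssc-miR-26a was that of ssc-miR-22-3p, at 0.081, and next came ssc-miR-30e-3p and ssc-miR-126-3p, the endothelial miRNA, at 0.086 and 0.10. For comparison, the median distance of ssc-miR-26a to all other tested targets was 0.27. The nearest to ssc-miR-22-3p were ssc-miR-126-3p, ssc-miR-152 and ssc-miR-30e-5p, at 0.069 to 0.076. The family pair was less close: bta-miR-26b lay 0.14 from ssc-miR-26a and had hsa-miR-25-3p (0.060), ssc-miR-28-5p (0.067) and ssc-miR-374a-5p (0.091) as its nearest profiles. Even so, ssc-miR-26a ranked 10 among the profiles nearest to bta-miR-26b, whose median distance to all other tested targets was 0.30. ssc-miR-22-5p lay 0.11 from its partner strand, and nearest to ssc-miR-30b-5p, ssc-miR-221-3p and ssc-miR-128, at 0.066 to 0.088. All profiles share the scaling factor of each array.

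Other miRNAs known to act on the same messenger RNAs were taken as lists. Of the miRNAs that repress EZH2, 13 entries were tested, 2 of them miR-26 guides, and hsa-let-7b-5p, a let-7 miRNA that restrains proliferation, rose in pregnant glands (0.74 ± 0.20, limma, adjusted p = 0.0330), while 0 fell and 12 did not pass, among them ssc-let-7a (0.27) and ssc-let-7f (0.10). The call of hsa-let-7b-5p ended when any 1 array other than cyclic replicate 1 was left out (0.64 to 0.81, limma, adjusted p = 0.0578 to 0.118) and held in 14 of the 29 other settings, with a positive difference in all 29. Over all tested targets 11.4% passed and 5.21% were higher in pregnant glands, so 1 of 13 is close to the background. The median of this list was 0.10, and 0.11 without the miR-26 entries. Of the miRNAs named as repressors of ESR1, 9 entries were tested and 0 passed. The list was matched by name on any arm and so held ssc-miR-22-5p, whose own difference was the median of 0.034. The median was −0.097 over the 8 entries without that strand, an exclusion made after the values were seen, and −0.27 without either miR-22 strand. The highest signals of the list beside ssc-miR-22-3p were those of ssc-miR-19b (−0.30 ± 0.15) and mmu-miR-193b-3p (0.32 ± 0.14). Over all 211 tested targets the median difference was 0.0068.

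Markers of the gland's cell types were read on the same arrays. The gonad-enriched miR-202 was present, its 3p strand on all 8 arrays and its 5p strand on 5, while 0 of 2 entries for liver, 0 of 5 for skeletal muscle, 0 of 5 for neural tissue and 1 of 9 for epithelium were detected. Summed scaled signals of the leukocyte list (6 of 11 entries detected, with miR-142-3p, miR-155-3p, miR-223-5p, miR-342-5p and ssc-miR-342 on 0 arrays) ran from 0.681 to 0.821 in pregnant and from 0.689 to 4.79 in cyclic glands. The highest sum was that of cyclic replicate 4, the array on which bta-miR-26b was highest. The other arrays did not follow this order. Cyclic replicates 2 and 3 had sums of 1.93 and 1.82 with bta-miR-26b at 0.89 and 0.81. Pregnant replicates 1 and 4 had sums of 0.82 with bta-miR-26b at 0.91. Within the list, ssc-miR-155-5p, a miRNA of activated lymphocytes and macrophages, fell in pregnant glands (−0.96 ± 0.25, limma, adjusted p = 0.0317), while the myeloid hsa-miR-223-3p stood at −2.29 ± 0.76 and did not pass (limma, adjusted p = 0.0758). Another entry for miR-155, bta-miR-155, stood at −0.34 ± 0.20 and did not pass (limma, adjusted p = 0.269). The remaining tested entries did not pass either: ssc-miR-142-5p stood at −0.65, mmu-miR-342-3p at −0.10 and ssc-miR-150 at 0.014. The call of ssc-miR-155-5p also ended without any 1 array other than cyclic replicate 1 (limma, adjusted p = 0.0569 to 0.0954) and held in 16 of the 29 other settings. The fibroblast list (4 of 4 entries detected) ran from 3.32 to 3.68 in pregnant and from 3.16 to 7.73 in cyclic glands, highest on cyclic replicate 3.

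Pregnant replicate 4, on which ssc-miR-26a and ssc-miR-22-3p were highest, had the lowest 75th percentile (188.8), the fewest detected targets (181) and the highest sum for the endothelial miR-126 strands (2 of 2 entries detected), 8.73 against 7.10 to 7.41 on the other pregnant arrays and 6.29 to 7.49 on cyclic ones. Its erythroid signal was miR-451 at 1.25, in a pregnant range that reached 6.16 and a cyclic range of 1.27 to 7.17. Of the other erythroid entries, ssc-miR-144 was detected on 3 arrays and so was not tested, and both miR-486 entries were on 0 arrays. The smooth muscle and pericyte list (4 of 4 entries detected) ran from 1.28 to 1.70 in pregnant and from 1.25 to 1.87 in cyclic glands. The part of these markers, and of the scaling factor, in the values of the miR-26 and miR-22 targets was not tested.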

How the data were processed

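The authors deposited 1 scanner file per sample, holding linear-scale spot intensity values from which Agilent Feature Extraction 10.7.3.1 had removed background and spatial trends, per the file headers (10.7 per the submitters' processing notes). They also deposited a value table that, set against the scanner values of 2193 bright spots, was on a log2 scale in the same direction (r 0.959 to 0.981, slopes 0.924 to 0.995) and centred per spot, with column medians from −0.000302 to 0.0318. Its scaling is unknown, and 3 cells above 100, in 2 columns taken as a score of the authors, were read as missing. It served as an alternative.

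Control spots (715) and spots marked as outliers (384 to 453 per array) were left out. Spots of a probe were averaged, the probe of a target with the highest mean over 8 arrays was used, and each array was divided by its 75th percentile over the 166 targets detected on all arrays (a probe is detected where at least 0.5 of its spots are well above background). Signals were floored at 0.0346 and log2 was taken. Differences were tested with limma 3.58.1 (lmFit, eBayes with trend, 2-sided) in R 4.3.3 over 211 targets detected on at least 4 arrays, with Benjamini-Hochberg adjustment at 0.05. The labels state no test. They call each sample an individual replicate, and the number of arrays limits the precision. Figures used Python 3.11.15 and matplotlib 3.10.9. The fit was tested on simulated data. Normexp was run on median spot and background signals.

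Named targets were all members, the 3 nearest profiles of each, and of each list those that passed and up to 3 of the brightest others. For the leukocyte list every tested entry was named. 1 further list is not reported here. The members and lists were chosen with earlier results of these data known. Alternatives restricted to a scan day or combining slide with the removal of cyclic replicate 1, and the comparison of the miR-22 strands, were added after seeing the data.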

Additional observations from a re-analysis of the deposited data

How the results depend on the processing

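The 4 detected targets kept their side of the threshold in all 29 other settings, but small differences changed sign in some. bta-miR-26b was 0.029 with quantile normalization and 0.19 with the 75th percentile over all probes. ssc-miR-22-3p was −0.089 with the authors' deposited table, and ssc-miR-26a was −0.12 with it and −0.028 with median centring. ssc-miR-22-5p was −0.038 with median centring and −0.0077 without scaling. With 1 array left out in turn the values ran from −0.039 (without pregnant replicate 4) to 0.087 for ssc-miR-26a, from −0.14 to −0.041 for bta-miR-26b, from 0.030 to 0.15 for ssc-miR-22-3p and from −0.025 (without cyclic replicate 3) to 0.11 for ssc-miR-22-5p. The 4 within-array differences kept their sign in the 13 other settings in which they were computed, mostly removals of 1 array. The replicate block among these leaves the values unchanged by design. Quantile normalization and the deposited table were not among them, and there the targets stood in another order. With the deposited table bta-miR-26b (−0.036) stood above ssc-miR-26a and ssc-miR-22-3p, and ssc-miR-22-5p (0.13) above ssc-miR-22-3p. With quantile normalization ssc-miR-22-3p (0.042) stood below ssc-miR-26a (0.092) and ssc-miR-22-5p (0.084). The count of 24 targets past the threshold over the whole table was 62 with the percentile over all probes, 45 with slide as a block without cyclic replicate 1, 14 with the second brightest probe, 11 with normexp, 11 with targets detected on at least 1 array, 9 without scaling, 2 with scan day as a block and 2 within the scan day of both groups. It was 81 without cyclic replicate 1 and 7 to 12 without any other single array. The cause of these changes was not tested.

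The replicate numbers were not used as pairs in the reported fit. The correlation of deviations of same-numbered arrays was 0.10, 0.099, −0.18 and 0.16, and 4 of 8 arrays correlated best with their own number. Whether the numbers mark pairs cannot be told from these values, as replicates 3 and 4 of both groups also shared slide 3. With a replicate block 27 targets passed, ssc-miR-26a stood at 0.045 (adjusted p = 0.873), bta-miR-26b at −0.10 (0.642), ssc-miR-22-3p at 0.10 (0.656) and ssc-miR-22-5p at 0.034 (0.926). ssc-miR-22-5p, the dimmest of the 4, had the widest interval of them.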

Other observations

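The SD of ssc-miR-26a among arrays of a group was 0.18 on the log2 scale in pregnant glands and 0.0022 in cyclic glands. The cyclic value was the smallest of the 211 tested targets, the next smallest being 0.038 and the median 0.29. The standard error of an array's value from the 9 or 10 spots of the probe was 0.0115 to 0.0169 on the cyclic arrays, which is larger than that SD. The second probe of ssc-miR-26a, scaled alike, had an SD of 0.19 in pregnant and 0.021 in cyclic glands. With 7 other ways of scaling or summarising the values the SD was 0.073 to 0.21 in pregnant and 0.049 to 0.33 in cyclic glands. The pattern was noticed after the values were seen and was not tested.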
